A study of Homo sapiens with 40 samples.

Results

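The 6005 distal regions that were open in every library were examined in BT474 and BT474R cells, 2 established lines of HER2-overexpressing breast ductal carcinoma, BT474 being sensitive to the antibody trastuzumab and BT474R being a resistant clone grown from it under the antibody. Chromatin accessibility had been measured by ATAC-seq, in which a transposase cuts open DNA and leaves sequencing adapters there, so that reads pile up into peaks. Cells of both lines were serum starved and then given epidermal growth factor (EGF), heregulin (HRG) or vehicle (water, the control) for 1, 12 or 24 h, and a baseline group (0 h) was collected after starvation, giving 20 groups of 2 libraries and 40 peak lists in all. The peaks of the 40 lists on chromosomes 1 to 22 and X were merged where they overlapped by at least 1 bp, and the members were selected by 2 rules, namely a peak in all 40 lists and a midpoint more than 10 kb from every annotated transcript start (GENCODE release 44, GRCh38). They made up 8.39% of the 71600 consensus regions found in at least 2 lists and 23.9% of the 25166 regions with a peak in all 40 lists, called shared regions below. Because presence in every list selected the members, presence itself cannot differ between groups, and what was compared is how high each member ranked.

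Distal open regions are mostly enhancers and insulators, stretches of DNA that transcription factors keep free of nucleosomes and from which promoters are controlled over long distances. In luminal breast cells such regions are commonly held by forkhead, GATA, TFAP2 and grainyhead factors, insulators are held by CTCF, and AP-1 (dimers of FOS and JUN proteins) binds enhancers after growth factor signalling. EGF binds the receptor EGFR and HRG binds HER3 and HER4, and both ligands signal through dimers with HER2 into the MAP kinase pathway, which induces FOS and JUN genes.

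Some members serve here to show the kind of sequence found at the summits, and each window covers 201 bp around the median summit (GRCh38, plus strand, 5′ to 3′). Capitals mark matches to the AP-1 letters TGANTCA, the forkhead letters TGTTTAC (either strand) or the CTCF consensus. The first 5 are members among those with the largest rise in a ligand comparison, chosen by that value.
DDX52 region, chr17:37671843-37672043: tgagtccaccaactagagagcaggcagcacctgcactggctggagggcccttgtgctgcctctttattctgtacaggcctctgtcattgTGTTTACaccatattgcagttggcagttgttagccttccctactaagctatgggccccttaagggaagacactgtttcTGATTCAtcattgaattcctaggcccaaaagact
SHLD1 region, chr20:5844456-5844656: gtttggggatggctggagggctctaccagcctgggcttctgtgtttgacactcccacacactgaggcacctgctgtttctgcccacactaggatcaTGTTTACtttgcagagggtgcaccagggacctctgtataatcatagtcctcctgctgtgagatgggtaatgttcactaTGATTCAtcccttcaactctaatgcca
CSF3R region, chr1:36691563-36691763: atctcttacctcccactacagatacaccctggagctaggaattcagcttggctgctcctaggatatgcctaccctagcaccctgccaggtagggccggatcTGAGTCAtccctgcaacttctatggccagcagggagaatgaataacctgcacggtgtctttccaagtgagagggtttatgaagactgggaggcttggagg
TPBG region, chr6:82646345-82646545: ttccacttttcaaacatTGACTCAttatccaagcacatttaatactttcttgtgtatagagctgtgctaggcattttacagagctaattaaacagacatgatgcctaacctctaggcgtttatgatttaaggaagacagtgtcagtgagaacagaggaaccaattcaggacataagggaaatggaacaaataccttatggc
VCX2 region, chrX:8204206-8204406: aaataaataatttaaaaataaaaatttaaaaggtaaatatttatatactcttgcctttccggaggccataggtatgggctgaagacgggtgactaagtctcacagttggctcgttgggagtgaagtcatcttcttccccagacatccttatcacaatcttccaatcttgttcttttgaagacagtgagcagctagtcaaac
The next 4 are members among those with the largest fall in a ligand comparison, and none of them held a match to these 3 motifs in the window.
NR3C2 region, chr4:148215320-148215520: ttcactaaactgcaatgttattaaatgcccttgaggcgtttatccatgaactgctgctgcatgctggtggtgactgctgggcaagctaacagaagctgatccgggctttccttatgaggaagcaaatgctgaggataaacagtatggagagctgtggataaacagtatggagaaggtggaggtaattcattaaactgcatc
PYDC2 region, chr3:191498875-191499075: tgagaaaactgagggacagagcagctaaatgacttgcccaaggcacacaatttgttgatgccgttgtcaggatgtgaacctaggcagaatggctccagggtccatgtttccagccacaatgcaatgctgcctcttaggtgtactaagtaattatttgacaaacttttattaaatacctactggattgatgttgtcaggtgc
IGFBP5 region, chr2:216739647-216739847: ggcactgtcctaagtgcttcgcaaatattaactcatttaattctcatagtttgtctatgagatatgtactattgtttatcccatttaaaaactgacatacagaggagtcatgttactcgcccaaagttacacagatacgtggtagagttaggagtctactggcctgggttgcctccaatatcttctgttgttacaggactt
RAD51B region, chr14:68178304-68178504: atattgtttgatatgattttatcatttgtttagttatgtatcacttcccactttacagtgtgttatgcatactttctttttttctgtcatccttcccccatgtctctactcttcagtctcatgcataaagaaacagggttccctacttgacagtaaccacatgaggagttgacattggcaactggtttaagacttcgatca
The last is one of the 3 lowest ranking members and shows a CTCF match.
UCHL1 region, chr4:41281199-41281399: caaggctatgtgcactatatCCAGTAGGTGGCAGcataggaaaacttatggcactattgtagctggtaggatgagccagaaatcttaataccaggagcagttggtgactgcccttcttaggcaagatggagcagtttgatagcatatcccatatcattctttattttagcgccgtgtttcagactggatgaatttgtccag
Of the 5 windows of raised members, 4 held an AP-1 match and the VCX2 window did not, and the counts over all members are given below.

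Each peak list gives a score per peak, the area under its significance curve, which grows with depth and width and cannot be compared between libraries as it stands. Scores were therefore ranked in 2 ways. The list percentile is the rank of a member's highest peak among all peaks of its own list (100 is the highest), and it was used to describe levels. The shared-region percentile is its rank among the 25166 shared regions only, and it was used for every test, because it cannot move with the number of peaks in a list. The lists held 47571 to 56846 peaks in BT474 and 32479 to 56494 in BT474R, and the shortest was BT474R control 12 h replicate 1. Read totals were not analysed here, so the depth behind each list is unknown. A peak was found within 1 kb of a start of all 11 luminal marker genes examined (10 of them, such as EPCAM, KRT8, GATA3 and FOXA1, in 40 lists and ESR1 in 39), whereas 6 of 13 markers of other cell types (KRT14, SPARC, PTPRC, CD3E, SPI1 and PECAM1) had none in any list and VIM and CDH5 had one in every list.

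The members ranked in the upper part of their lists. Their mean list percentile had a median of 62.0, with quartiles of 49.8 and 75.8. The 12281 promoter regions that were open in every list, within 1 kb of a start, had a median of 79.99, and the 19674 distal regions found in 2 to 39 lists had one of 18.3. Just outside the selection, 840 distal regions with a peak in 39 lists had a median of 38.9 and a median peak width of 383 bp, against 562 bp in the members. At the distance limit, 403 shared regions at 10 to 11 kb from a start had a median of 61.3 and 451 at 9 to 10 kb had 61.9. Both rules chose the members, so these levels are a description of the selection.

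By position, 3191 members (53.1%) lay in introns, 2692 (44.8%) between genes and 122 (2.03%) in exons. The median distance to the nearest transcript start was 21.6 kb, and 958 members were more than 50 kb from any start. A protein-coding gene start lay within 100 kb of 3755 members (62.5%), and 1641 (27.3%) had another member within 12.5 kb. A single peak covered the member in each list that had it for 5221 of 6005 (86.9%). The summits of the 40 lists fell close together, with a median interquartile range of 11 bp. The windows had a median GC content of 49.8%, against 66.2% at the promoter regions and 46.8% at the other distal regions.

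Matches to 12 factor motifs were counted in the 201 bp windows on both strands. The AP-1 letters were found in 1258 members (20.9%) and the forkhead letters in 743 (12.4%). TFAP2 factors, which mark luminal and epithelial cells, were searched as GCCNNNGGC and found in 1035 members (17.2%). Grainyhead factors, which keep epithelial enhancers open, were searched as AACCNGTT and found in 354 (5.90%). TEAD factors, the partners of YAP, were searched as ACATTCC and found in 300 (5.00%). SP and KLF factors, common at promoters, were searched as GGGCGGG and found in 283 (4.71%). GATA factors, among them the luminal GATA3, were searched as AGATAAG and found in 156 (2.60%). CTCF, searched by its consensus, was found in 135 (2.25%). ETS factors, common at promoters and targets of MAP kinases, were searched as CCGGAAG and found in 102 (1.70%). The letters of these motifs can overlap in a window, and a member counts under each motif it holds. Over all 25166 shared regions these shares were 12.3% for AP-1, 20.8% for TFAP2, 6.99% for forkhead, 3.81% for grainyhead, 3.47% for TEAD, 23.3% for SP/KLF, 1.49% for GATA, 2.02% for CTCF and 7.59% for ETS. The promoter regions open in every list held AP-1 in 5.41%, SP/KLF in 41.2% and ETS in 13.7%, so the members differed from them mainly in having more AP-1 and forkhead letters and fewer SP/KLF and ETS letters. In the distal regions found in 2 to 39 lists the AP-1 share was 21.7% and the forkhead share 11.4%, close to those of the members. The AP-1 match nearest to the summit was a median of 34 bp from it. The 135 members with a CTCF match had the lowest median list percentile of the motif classes (52.1) and narrow peaks (median 413 bp), whereas the 1258 with AP-1 had a median percentile of 63.2 and a width of 554 bp. The other 3 motifs searched were CREB (TGACGTCA, 1 base longer than the AP-1 letters and not matched by them), found in 27 members, C/EBP (TTGCNNCAA) in 115 and the estrogen response element, searched by its consensus, in 2, and 2561 members held none of the 12. Over all shared regions their shares were 1.24%, 1.22% and 0.01%.

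The strongest members were few and concentrated. In all 40 lists, 2167 members stayed above the 50th list percentile, 181 above the 90th and 17 above the 99th. Of those 17, 8 lay on chromosome 20, 6 on chromosome 17, 2 on chromosome 11 and 1 on chromosome 9, although chromosomes 20 and 17 held 5.60% and 4.61% of all members. The 5 members with the highest floor were a 12591 bp region in an intron of SRCIN1 (chr17:38581669-38594259), whose lowest percentile in any list was 99.84, a region 176.6 kb from ZNF217 (chr20:53784995-53788113, lowest 99.86), one 23.6 kb from P2RY2 (chr11:73193070-73196255, lowest 99.81), one 17.9 kb from ABI3 (chr17:49191629-49193485, lowest 99.69) and one 35.8 kb from NEUROD2 (chr17:39572017-39576016, lowest 99.69). SRCIN1 and NEUROD2 lie on the same chromosome arm as ERBB2, the gene of HER2, which is amplified in BT474, and ZNF217 is a gene often amplified in breast cancer. The SRCIN1 and NEUROD2 regions lie in the 5 Mb window of chromosome 17 from 35000001 to 40000000. Its 43 members had a median list percentile of 74.4 and its 169 other shared regions one of 90.1. The ABI3 region lies in the window from 45000001 to 50000000, which had the highest member median of the windows with at least 10 members. There the 24 members had a median of 81.6 and the 127 other shared regions one of 80.3. DNA copy number adds reads to a peak and was not measured here, so its part in these levels was not tested. At the other end, the 3 lowest members were a region 24.8 kb from UCHL1 (chr4:41281115-41281385), one 710.8 kb from TBX3 (chr12:115394865-115395111) and one in an intron of FOXO3 (chr6:108677340-108678427), with median list percentiles of 19.3, 20.2 and 17.5.

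Presence in every list went with levels that varied. The list percentile of a member spanned a median of 35.4 points over the 40 lists, with quartiles of 22.9 and 48.5, and 3660 members crossed the 50th percentile while 178 stayed at or below it throughout. On the shared-region scale, the SD between the 2 libraries of a group had a median of 4.01 points over the members, and the SD over all 40 libraries one of 8.50. Per member, the line made up a median of 41.6% of the sum of squares, the treatment and time within a line 41.7% and the replicates 12.0%. In the shared promoter regions the medians were 43.5%, 34.9% and 17.1%. These shares were not corrected for degrees of freedom, so the share of treatment and time also holds spread between replicates.

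**Figure D1:**
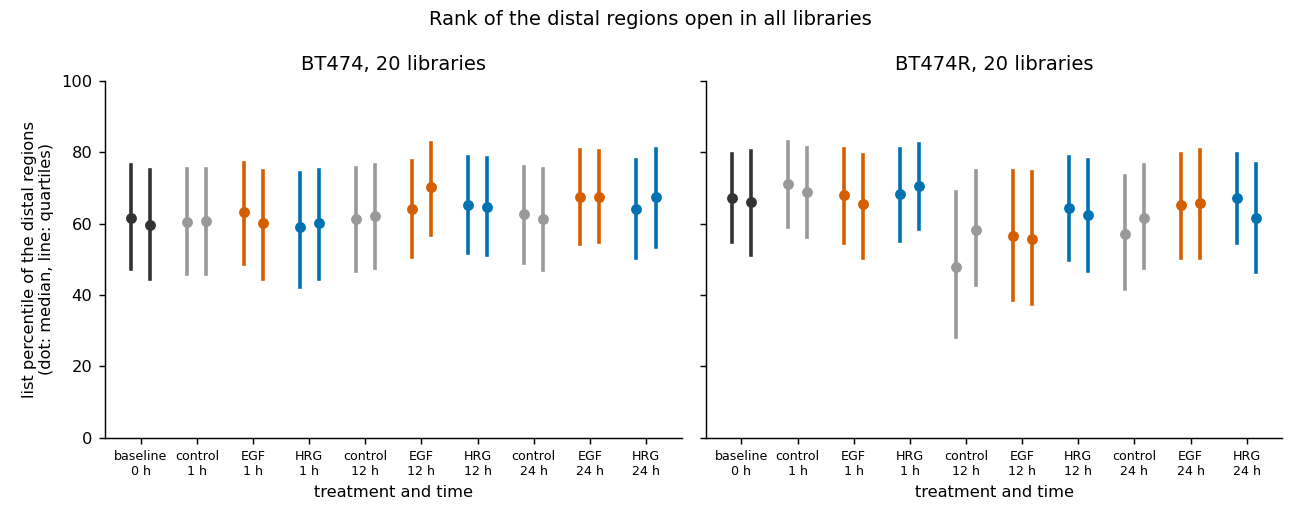
List percentile (0 to 100) of the 6005 distal regions in each library, with dots for the median and lines for the quartiles, by treatment and time in BT474 (left) and BT474R (right), 2 libraries per group. The BT474 medians lay between 58.9 and 70.2 and the BT474R medians between 48.0 and 71.1, where the lowest was control 12 h replicate 1, the list with the fewest peaks.

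The first comparison asked which members ranked differently between BT474R and BT474, over 20 libraries of each line with treatment and time kept in the model. After limma with Benjamini-Hochberg adjustment over all shared regions (adjusted p below 0.05 was called), 3127 members (52.1%) were higher in BT474R and 1984 (33.0%) were lower. Over all shared regions 41.5% were higher and 42.5% lower. The share of members called (85.1%) was near that of all shared regions (84.0%), but the balance was tilted upward in the members, with a median difference of 2.92 points against -0.15 over all shared regions. The tilt was smaller when the list percentile was used instead, where 52.2% rather than 61.2% of the called members were higher. Differences of at least 20 points were seen in 871 members upward and 414 downward. Such differences were not counted over all shared regions, so these counts cannot be read as particular to the members. The median SD over all 40 libraries was 8.50 points in the members and 6.16 in the shared promoter regions.

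The members that separated the lines most did so without overlap. The region 71.3 kb from PMEPA1 (chr20:57781493-57784245), a TGF-beta-induced inhibitor of that pathway, had shared-region percentiles of 0.72 to 27.8 (median 4.60) across the 20 BT474 libraries, while the 20 BT474R libraries stood at 96.6 to 98.8 (median 98.0). It lay in the lower part of the shared regions in each BT474 library and near the top in each BT474R library (difference 90.4 ± 1.35 (SE), adjusted p = 1.1e-24). The region in an intron of URB1 (chr21:32364084-32365206), a ribosome biogenesis factor, ranged between 1.24 and 11.2 (median 4.32) in BT474 and between 84.2 and 90.7 (median 87.4) in BT474R, a difference of 83.2 ± 0.75 (SE). A region 33.3 kb from CALD1 (chr7:134710231-134711595), which encodes the actin-binding protein caldesmon, ranged between 0.33 and 14.2 (median 2.45) in BT474 and between 69.9 and 88.0 (median 79.8) in BT474R, and was 75.4 ± 1.04 (SE) points higher. The region in an intron of THSD4 (chr15:71649739-71650848), ranged between 0.91 and 40.9 (median 9.13) in BT474 and between 78.1 and 91.0 (median 87.6) in BT474R. None of these 4 held an AP-1 match.

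Of the members that ranked lower in BT474R, a region on chromosome 8, 49.6 kb from ODF1, ranged between 87.1 and 93.8 (median 90.3) in BT474 and between 0.19 and 26.6 (median 11.1) in BT474R, the largest fall (difference -80.5 ± 1.54 (SE)). An intronic region of the readthrough gene PEDS1-UBE2V1 (chr20:50141373-50143653) ranged between 65.9 and 94.5 (median 89.1) in BT474 and between 11.2 and 31.8 (median 19.1) in BT474R. An intronic region of ZMYND8 (chr20:47241475-47242914), a reader of histone marks, ranged between 84.1 and 91.4 (median 87.8) in BT474 and between 13.3 and 31.0 (median 20.01) in BT474R. A region in an intron of CHASERR (chr15:92868992-92870545), the noncoding neighbour of the chromatin remodeller CHD2, ranged between 69.9 and 83.4 (median 78.2) in BT474 and between 0.01 and 28.3 (median 9.21) in BT474R. As in the raised regions, the 2 lines did not overlap in any of these. Both sets were named for the largest differences between the lines, so their separation is partly a result of that choice. A peak in every library follows from how the members were selected.

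The difference between the lines varied along the genome. By chromosome, the median difference of the members was highest on chromosome 21 (10.6 points, 68 members), chromosome 22 (10.1, 112 members) and chromosome X (9.35, 167 members), and lowest on chromosome 14 (-3.43, 263 members), chromosome 3 (-2.97, 323 members) and chromosome 11 (-2.96, 243 members). On chromosome 21, 80.9% of the members were higher in BT474R and 7.35% lower, while on chromosome 14 the shares were 30.0% and 54.8%. Of the 240 windows of 5 Mb with at least 10 members, the highest median was on chromosome 2 from 30000001 to 35000000, where all 10 members were higher in BT474R (median 37.3 points, 5.63 in the 21 other shared regions). The lowest was on chromosome 5 from 135000001 to 140000000, where 12 of 13 members were lower (median -20.1, against -16.6 in the 37 other shared regions). Windows accounted for 20.8% of the variance of the line difference between members, and for 7.78% to 8.58% of that of the ligand differences. Over 235 windows with at least 10 other shared regions, the window medians of members and of the other regions had a Pearson r of 0.76, a description over windows that come from the same 40 libraries. Copy number of these stretches was not measured and its part was not tested. With the median of its 5 Mb window subtracted from each member, 82.4% of members in windows with at least 10 shared regions were still called.

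**Figure D2:**
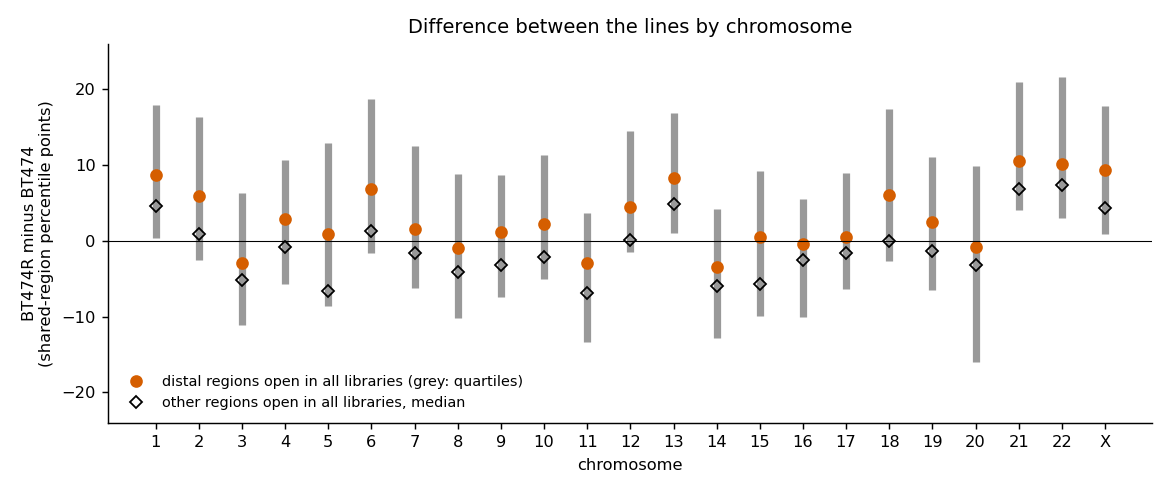
Difference in shared-region percentile between BT474R and BT474 (20 libraries each) by chromosome, with orange dots for the median of the distal regions, grey bars for their quartiles and open diamonds for the median of the other regions open in all libraries. The dots lie above the diamonds on every chromosome, and both run from high on chromosomes 21 and 22 to low on chromosomes 11 and 14.

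CTCF members were more often lower than higher in BT474R. Of the 135 with a CTCF match, 35 (25.9%) were higher in BT474R and 74 (54.8%) lower, with a median difference of -3.39 points. Among the 508 shared regions with CTCF the shares were 29.3% and 52.0%. Of the 1258 AP-1 members, 55.01% were higher and 30.3% lower, and of the 743 forkhead members 50.7% and 31.9%, close to the shares of all members.

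The second set of comparisons asked what each ligand did against the control of the same line, with 6 libraries per arm over 1, 12 and 24 h. In EGF-BT474, 1166 members (19.4%) were raised and 211 (3.51%) lowered, against 11.3% and 5.73% of all shared regions. HRG-BT474 had 1223 raised (20.4%) and 595 lowered (9.91%), against 11.7% and 8.32%. EGF-BT474R had 1000 raised (16.7%) and 630 lowered (10.5%), against 9.69% and 6.89%. HRG-BT474R had the fewest, 242 raised (4.03%) and 41 lowered (0.68%), against 2.26% and 0.56%. The share raised was thus larger in the members than over all shared regions in each comparison, and the share lowered was larger in 3 of the 4. Differences of at least 20 points were few, from 40 members in HRG-BT474R to 233 in EGF-BT474R, and were not counted over all shared regions. EGF and HRG in one line share their control libraries, so their counts are given side by side only. On the list percentile the calls were more one-sided, with 98.7% rather than 84.7% of called members raised in EGF-BT474, 99.7% rather than 85.5% in HRG-BT474R and, over all consensus regions, 78.6% rather than 67.3% in HRG-BT474. The HRG-BT474R count rested on the 12 h groups, since 2 members were called when these were left out, and on single libraries. It was 143 to 182 without HRG 1 h replicate 1 or 2, HRG 12 h replicate 1 or 2, control 1 h replicate 2, control 12 h replicate 1 or control 24 h replicate 1. For EGF-BT474R 857 members were called without the 12 h groups, against 1630 with them.

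AP-1 letters were more frequent in raised than in lowered members in all 4 ligand comparisons. In EGF-BT474, 575 of the 1166 raised members (49.3%) had an AP-1 match in the window, against 5 of 211 lowered (2.37%) and 14.7% of the 4628 not called. In HRG-BT474 the shares were 50.7% of raised, 2.69% of lowered and 14.9% of those not called. In EGF-BT474R they were 56.9%, 5.08% and 15.0%, and in HRG-BT474R 62.0%, 2.44% and 19.3%. Forkhead letters were distributed in the opposite order, in 9.43% of raised and 16.1% of lowered members of EGF-BT474, 9.73% and 15.8% of HRG-BT474, 11.3% and 15.9% of EGF-BT474R, and 9.50% and 34.1% (14 of 41) of HRG-BT474R. TFAP2 shares differed little, from 16.9% to 18.5% of raised and from 12.2% to 16.6% of lowered members. CTCF was nearly absent from raised members (3, 3, 1 and 0 regions). These are shares of letters in a window and not tests of binding.

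**Figure D3:**
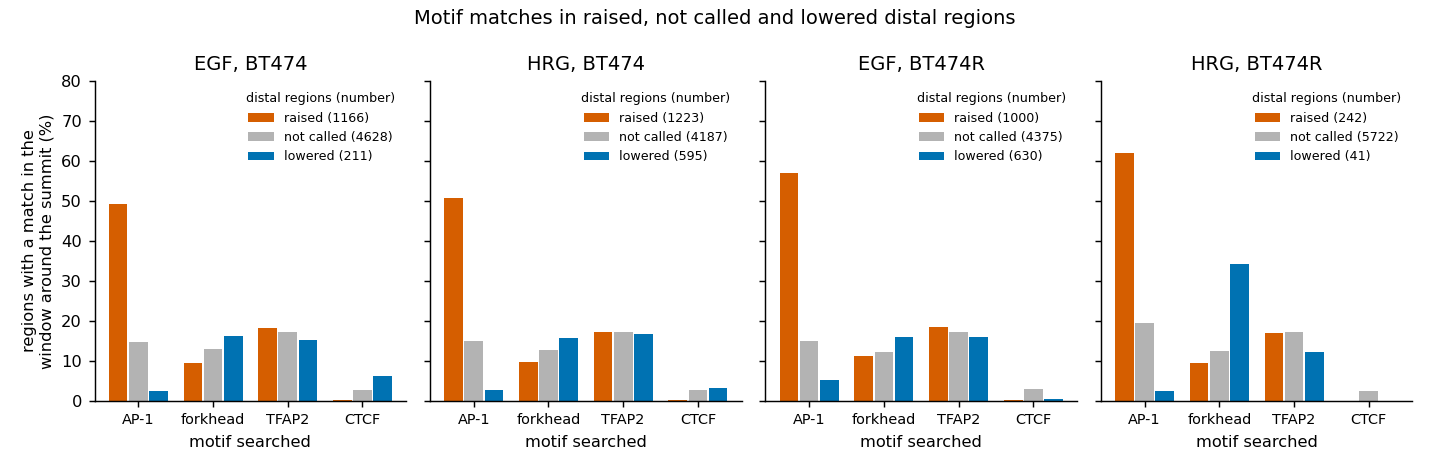
Share (%) of raised (orange), not called (grey) and lowered (blue) distal regions whose 201 bp window held the AP-1, forkhead, TFAP2 or CTCF motif, one panel per ligand and line, with the number of regions in brackets. AP-1 stands at 49.3% to 62.0% of raised and 2.37% to 5.08% of lowered regions, while the forkhead bars are higher in the lowered regions.

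Read from the motif side, 575 of the 1258 AP-1 members (45.7%) were raised and 5 lowered in EGF-BT474, with a median difference of 5.38 points. The corresponding counts were 620 raised and 16 lowered in HRG-BT474 (median 5.72), 569 and 32 in EGF-BT474R (median 6.32), and 150 and 1 in HRG-BT474R (median 2.99). Among all 3083 shared regions with AP-1 letters, 42.8%, 45.3%, 41.5% and 10.6% were raised in the same order, so this was not particular to the distal members. Members with 2 or more AP-1 matches (135) were raised in 57.8%, 60.7%, 60.0% and 14.8%, those with 1 match (1123) in 44.3%, 47.9%, 43.5% and 11.6%, and those with none (4747) in 12.5%, 12.7%, 9.08% and 1.94%. The share was also counted by the form of the letters. The 1021 members with TGACTCA or its reverse complement TGAGTCA were raised in 48.9% of cases in EGF-BT474, 52.9% in HRG-BT474, 47.8% in EGF-BT474R and 12.4% in HRG-BT474R. The 237 with TGAATCA or TGATTCA alone were raised in 32.1%, 33.8%, 34.2% and 9.70%. In HRG-BT474R, where few members were called, the median differences of the 2 forms were 3.34 and 1.77 points. The 135 CTCF members had median differences of -1.71 points in EGF-BT474, -2.23 in HRG-BT474, -0.07 in EGF-BT474R and -1.61 in HRG-BT474R, and 13 (9.63%), 19 (14.1%), 2 (1.48%) and 0 of them were called lowered in the same order. Of the 508 shared regions with CTCF, 6.30%, 9.45%, 0.98% and 0.20% were lowered. Of the 2561 members with none of the 12 motifs, 340 were raised (13.3%) and 102 lowered (3.98%) in EGF-BT474, 346 (13.5%) and 312 (12.2%) in HRG-BT474, 232 (9.06%) and 318 (12.4%) in EGF-BT474R, and 52 (2.03%) and 21 (0.82%) in HRG-BT474R. Of the 9549 shared regions without any of these motifs, 8.78% were raised and 5.13% lowered in EGF-BT474, 8.90% and 10.0% in HRG-BT474, 6.42% and 9.14% in EGF-BT474R, and 1.35% and 0.70% in HRG-BT474R.

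Single members show the size of these changes. The region 28.5 kb from DDX52 (chr17:37671467-37672431), an RNA helicase gene, has AP-1 and forkhead letters in the window printed above and was raised in all 4 comparisons. In BT474 its shared-region percentile was 15.1 to 35.1 (median 17.7) in the 6 control libraries, 53.5 to 69.1 (median 60.3) after EGF and 58.6 to 71.0 (median 67.2) after HRG. No ligand library of BT474 overlapped the controls (EGF 38.6 ± 3.49 (SE), adjusted p = 1.84e-05, and HRG 44.4 ± 3.49, adjusted p = 3.82e-06, limma). In BT474R it was 4.22 to 44.7 (median 30.0) in controls, 60.0 to 77.0 (median 67.5) after EGF and 36.2 to 67.5 (median 55.6) after HRG, so that EGF was clear of the controls and HRG overlapped them (28.5 ± 4.08, adjusted p = 0.00338).

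The intronic region of SHLD1 (chr20:5844052-5844900), a DNA repair factor, shows a response in one line that was small in the other. In BT474 the controls were at 1.88 to 16.3 (median 4.84), EGF at 37.4 to 52.0 (median 44.1) and HRG at 38.7 to 55.5 (median 46.0). In BT474R it stood high already, at 69.5 to 77.6 (median 73.6) in controls, 78.4 to 84.8 (median 82.6) after EGF and 70.8 to 81.7 (median 78.9) after HRG. The ligand differences were 27.8 points smaller in BT474R for EGF (-27.8 ± 3.88 (SE), adjusted p = 0.000163) and 33.5 points smaller for HRG (-33.5 ± 3.88, adjusted p = 1.38e-05). A percentile near 100 leaves less room to rise, and the part of this limit was not tested.

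The intergenic region 208.4 kb from CSF3R (chr1:36691311-36692080) and the one 283.1 kb from TPBG (chr6:82645574-82646977), the gene of a Wnt-inhibiting glycoprotein, rose in both lines and more after EGF in BT474R. The CSF3R region was at 0.70 to 13.7 (median 5.63) in BT474 controls and 25.6 to 40.1 (median 30.6) after EGF, and at 8.58 to 38 (median 29.1) in BT474R controls and 57.4 to 81.5 (median 77.3) after EGF. Its EGF difference was 20.8 ± 4.53 (SE) points larger in BT474R (adjusted p = 0.0112). The TPBG region was at 0.01 to 2.11 (median 0.12) in BT474 controls and 5.57 to 43.5 (median 26) after EGF, and at 15.6 to 42.6 (median 30.6) in BT474R controls and 58.7 to 87.4 (median 83.4) after EGF, a difference 23.8 ± 5.84 points larger in BT474R (adjusted p = 0.0237). In both regions the EGF and control libraries of each line did not overlap. The BT474 controls lay near the bottom of the scale, where a percentile point need not equal the same change in score as higher up. The part of this in the larger BT474R differences was not tested. A member on chromosome 8, 314.6 kb from DUSP4, with 2 AP-1 matches, had the second largest HRG rise in BT474 (38.9 ± 3.69 (SE)), from 0.14 to 10.7 (median 2.03) in controls to 33.2 to 54.1 (median 42.8). The VCX2 region (chrX:8203904-8204976), which held none of the 12 motifs, was raised by HRG in BT474R by 39.8 ± 6.78 (SE) points (adjusted p = 0.00895), from 11.7 to 59.9 (median 21.1) in controls to 53.7 to 70.1 (median 68.1), with some overlap.

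Among lowered members, the intronic region of NR3C2 (chr4:148214588-148215607), the gene of the mineralocorticoid receptor, was at 35.0 to 44.6 (median 39.98) in BT474 controls, 1.74 to 30.8 (median 8.46) after EGF and 0.61 to 32.9 (median 6.37) after HRG. It fell without overlap under both ligands in BT474 (-28.8 ± 4.71 (SE), adjusted p = 0.00121, and -29.0 ± 4.71, adjusted p = 0.00085, limma). In BT474R it was at 23.3 to 53.4 (median 48.4) in controls and 7.86 to 28.7 (median 14.9) after EGF, a fall with a small overlap (adjusted p = 0.000595). The region 44 kb from IGFBP5 (chr2:216738765-216740276), which encodes a binding protein of insulin-like growth factors, was at 39.4 to 63.6 (median 48.6) in BT474R controls, 6.05 to 19.0 (median 8.65) after EGF and 15.7 to 55.7 (median 30.6) after HRG. EGF was again clear of the controls there (-40.7 ± 3.85 (SE), adjusted p = 1.89e-05). In BT474 its EGF libraries were at 48.9 to 81.2 (median 70.1) and the controls at 58.5 to 83.6 (median 75.7), which overlap, and the EGF difference was 33.9 points lower in BT474R (-33.9 ± 6.02, adjusted p = 0.00201). An intronic region of RAD51B (chr14:68177106-68178844), a recombination factor, was at 35.1 to 73.2 (median 62.7) in BT474R controls and 8.02 to 56.3 (median 12.4) after EGF (-36.1 ± 6.74 (SE), adjusted p = 0.00243), with overlap, and stayed between 77.1 and 89.2 in all 20 BT474 libraries. The region 38.3 kb from PYDC2 (chr3:191498756-191500075) fell in BT474 under HRG by 29.5 points on that scale, and one in an intron of FBXL7 (chr5:15715643-15716569) fell in BT474R under HRG by 17.2 points.

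**Figure D4:**
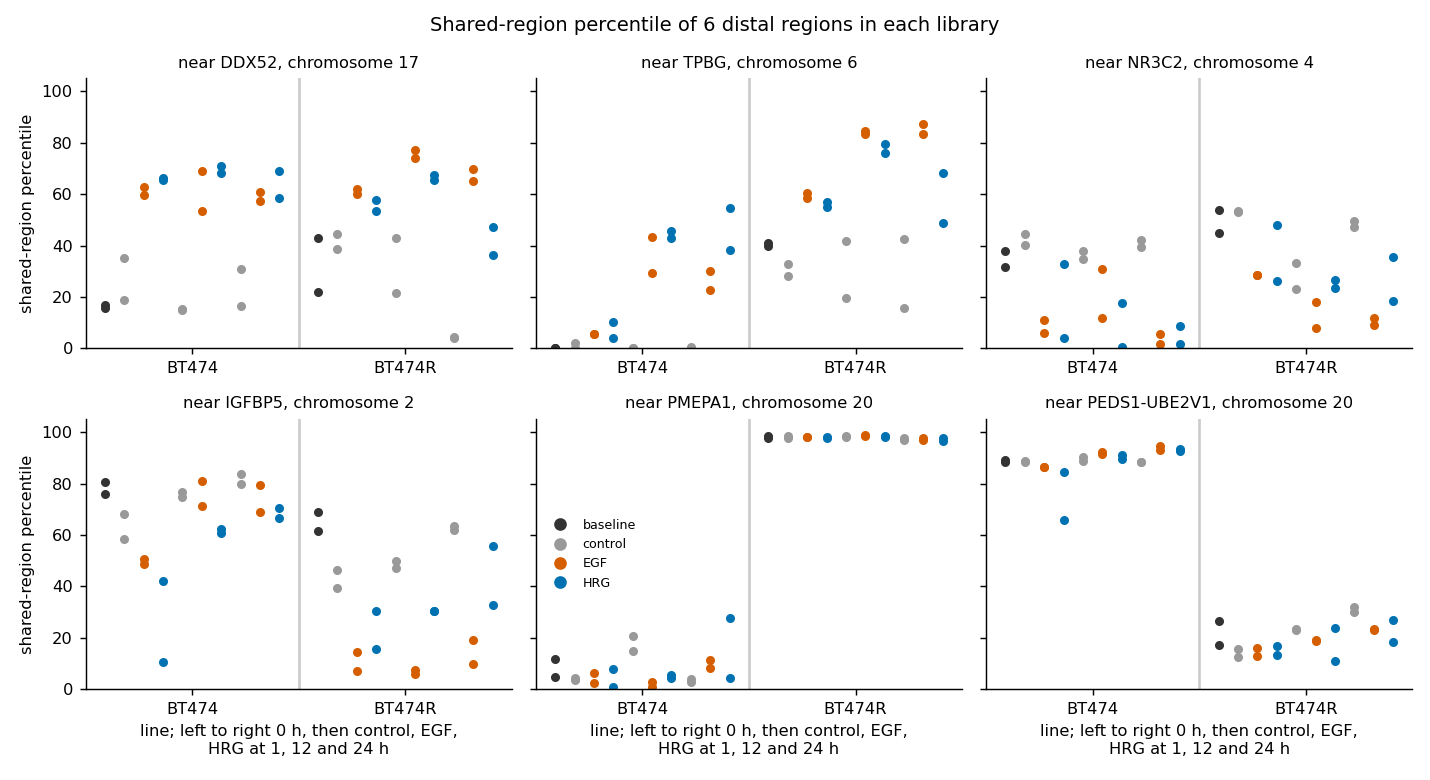
Shared-region percentile (0 to 100) of 6 distal regions, named by the nearest protein-coding gene, in each of the 40 libraries, ordered within a line as 0 h, then control, EGF and HRG at 1, 12 and 24 h. The DDX52 and TPBG regions rise after ligands, the NR3C2 and IGFBP5 regions fall, and the PMEPA1 and PEDS1-UBE2V1 regions differ between the lines in every library.

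By time (1, 12 and 24 h in that order), the called members numbered 299, 516 and 1205 for EGF-BT474 (against 3.26%, 6.11% and 16% of all shared regions), 848, 770 and 1226 for HRG-BT474 (8.88%, 8.88% and 14.3%), 75, 736 and 882 for EGF-BT474R (0.854%, 7.37% and 8.85%), and 0, 210 and 4 for HRG-BT474R (0.00795%, 2.22% and 0.0318%). At 1 h, lowered and raised members were similar in number in BT474 (135 and 164 with EGF, 459 and 389 with HRG), as they were over all shared regions (1.55% lowered and 1.72% raised with EGF, 4.78% and 4.1% with HRG). At 24 h the raised members were in the majority, with 1062 against 143 for EGF and 1059 against 167 for HRG. Over all shared regions 10.6% were raised and 5.4% lowered by EGF at 24 h, and 10% and 4.26% by HRG. In BT474R, EGF raised 572 members and lowered 310 at 24 h, against 5.6% and 3.25% of all shared regions. HRG at 1 h in BT474R gave no call in limma, and 302 members (5.03%) had an unadjusted p under 0.05, about the share which that threshold passes when nothing differs. The median SE of this comparison was 4.28 points, so the lack of calls does not show that no member changed. With 2 libraries a side these counts depend on single libraries. Without any one of the 4 libraries compared, they fell to between 54 and 103 for EGF-BT474 at 1 h, between 378 and 446 for HRG-BT474 at 1 h, between 257 and 334 for HRG-BT474 at 12 h, between 4 and 30 for EGF-BT474R at 1 h and between 324 and 546 for EGF-BT474R at 24 h. For EGF-BT474 at 12 h the count was 1198 without EGF replicate 1, 77 without EGF replicate 2, and 133 or 175 without control replicate 1 or 2. At 24 h in BT474 it was 544 to 661 without control replicate 1 or 2 or EGF replicate 1, and for HRG 615 to 686 without control replicate 1 or 2 or HRG replicate 2. At 12 h in BT474R it was 304 to 358 without control replicate 1 or either EGF library, and for HRG 41 to 54 without control replicate 1 or either HRG library. For HRG-BT474R at 24 h it was 7 to 18 without control replicate 2 or either HRG library, and for HRG-BT474R at 1 h it was 1 without HRG replicate 1.

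The AP-1 members ranked above their controls in median throughout the time course. The median of their difference to the control mean was above 0 in each of the 24 ligand libraries, from 0.20 points in HRG-BT474R 24 h replicate 1 to 10.9 in HRG-BT474 24 h replicate 2. In EGF-BT474 the 2 libraries were at 4.04 and 3.76 at 1 h, 2.37 and 8.86 at 12 h, and 7.44 and 6.40 at 24 h. HRG-BT474 was at 4.31 and 4.18, then 4.61 and 4.58, then 5.28 and 10.9. EGF-BT474R was at 4.42 and 5.11, then 7.04 and 6.72, then 6.24 and 8.70, and HRG-BT474R at 2.44 and 1.82, then 3.49 and 4.83, then 0.20 and 4.26. The 4021 members with neither AP-1, forkhead nor CTCF stayed between -1.72 and 3.32, and the 604 with forkhead but no AP-1 between -2.87 and 4.89. The 2 libraries with the largest AP-1 values also had the largest values of these 2 classes. HRG-BT474 24 h replicate 2 was at 3.17 and 4.89, and EGF-BT474 12 h replicate 2 at 3.32 and 3.74. The median shared-region percentile of all members was 37.9 and 39.1 in these libraries, against 33.1 and 33.3 in replicate 1 of each group. The AP-1 members called as raised numbered 94, 220 and 430 at 1, 12 and 24 h in EGF-BT474, 217, 280 and 462 in HRG-BT474, 28, 288 and 318 in EGF-BT474R, and 0, 102 and 2 in HRG-BT474R. As shares of the 1258 these were 7.47%, 17.5% and 34.2% in EGF-BT474 and 17.2%, 22.3% and 36.7% in HRG-BT474, close to those of all shared regions with AP-1 letters (7.49%, 16.5% and 33.3%, and 16.7%, 22.1% and 34.4%). In EGF-BT474R they were 2.23%, 22.9% and 25.3%, against 1.98%, 21.4% and 23.4%, and in HRG-BT474R at 12 h 8.11% against 7.53%.

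**Figure D5:**
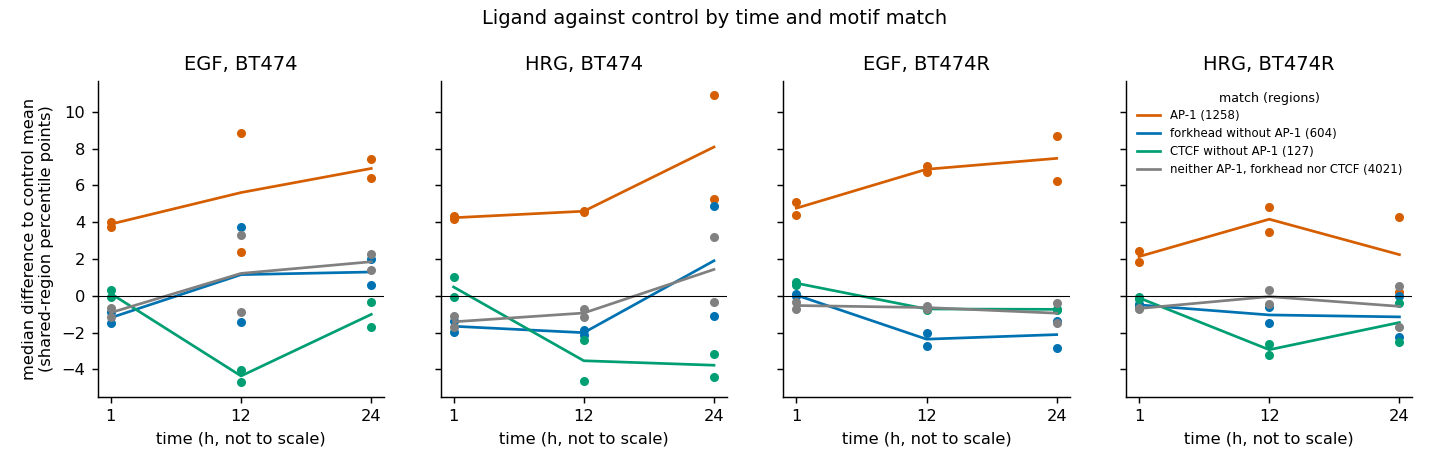
Median difference from the mean of the 2 control libraries of the same time (shared-region percentile points) for distal regions grouped by motif match, with dots for the 2 libraries and lines for their mean at 1, 12 and 24 h (axis not to scale), one panel per ligand and line. The AP-1 class (1258 regions) lies above the others in all 4 panels at each time, with the lowest values in HRG-BT474R.

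The 2 lines share no library, so their ligand calls can be set against each other. Of 1166 members raised by EGF in BT474 and 1000 in BT474R, 670 were raised in both, which is 57.5% of the first list and 67.0% of the second, and 413 of the 670 (61.6%) had AP-1 letters. Of the lowered members 94 were shared, 44.5% of the 211 in BT474 and 14.9% of the 630 in BT474R. With HRG, 204 were raised in both lines, 16.7% of 1223 and 84.3% of 242, and 25 were lowered in both, 4.20% of 595 and 61.0% of 41. Members raised in BT474 had a median difference in BT474R of 8.37 points with EGF and 4.61 with HRG, and 92.9% and 88.7% of them differed upward there. The overlap between the lines was not counted over all shared regions. Whether these shares are particular to the distal members was therefore not tested.

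A test of the difference itself (ligand by line) called 346 members with EGF, against 3.46% of all shared regions (1.3% with a higher and 2.16% with a lower effect in BT474R), and 152 with HRG, against 1.61% (0.29% and 1.32%). With EGF, 120 members had a larger (more positive) effect in BT474R, with median effects of 5.42 points in BT474 and 19.5 in BT474R, and 71 of them (59.2%) had AP-1 letters. The other 226 had a lower effect in BT474R (medians 1.48 and -8.83), and 27 of them (11.9%) had AP-1 letters. With HRG, 131 had a lower effect in BT474R (medians 15.9 and 1.99), 60 of them (45.8%) with AP-1 letters, and 21 a higher one (medians -9.83 and 2.06). Without the 12 h groups 69 and 91 members were called, and without BT474 EGF 1 h replicate 1 or EGF 24 h replicate 1 the EGF count was 225 or 220. On the list percentile the balance moved, with 11.8% rather than 34.7% of the EGF calls and 45.7% rather than 13.8% of the HRG calls higher in BT474R (60.8% over all consensus regions). EGF against HRG called 1 member in BT474 (583, or 9.71%, at an unadjusted p under 0.05), against 0.0596% of all shared regions, and 246 in BT474R, against 2.35%, of which 144 were higher with EGF and 102 higher with HRG (1.34% and 1.02% of all shared regions). The direction in BT474R depended on the ranking, since 3% of called members were higher with EGF on the list percentile, and the count was 71 without the 12 h groups. It was 104 to 158 without any one EGF or HRG library of 1 h, either HRG library of 12 h, EGF 12 h replicate 1 or either EGF library of 24 h. The single call in BT474 became 2 to 16 without any one EGF or HRG library except the 2 of HRG at 12 h.

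The controls at 24 h were compared with the baseline to see how far members moved without a ligand. In BT474, 6 members were raised and 26 lowered (0.119% and 0.358% of all shared regions), and in BT474R 29 were raised and 208 lowered (0.767% and 1.86%). On the list percentile 40% rather than 18.8% of the called members were higher at 24 h in BT474 and 0.56% rather than 12.2% in BT474R. In BT474 the region 54.2 kb from TLR10 (chr4:38728426-38729252) went from 52.0 and 53.7 at baseline to 17.9 and 25.2 at 24 h, and the one in an intron of NPR3 (chr5:32785549-32786292), a natriuretic peptide receptor, from 41.4 and 36.8 to 10.9 and 10.3. The region 149.7 kb from TNFAIP3 (chr6:137717097-137717934), an inhibitor of NF-kappaB signalling, went from 25.2 and 18.0 to 53.4 and 49.0, and the KCNK10 region (chr14:88246903-88247758) from 8.46 and 9.51 to 37.8 and 31.8. In BT474R the region 28.6 kb from ABCC12 (chr16:48126905-48127844) fell from 57.5 and 73.2 to 16.0 and 14.2, the one 156.4 kb from RTKN2 (chr10:62112110-62112798) from 42.1 and 59.8 to 17.5 and 4.05, and the one 36.9 kb from TH (chr11:2208160-2209285) rose from 20.4 and 9.16 to 58.5 and 52.6, as did the CCNY region (chr10:35387782-35388545) from 12.3 and 5.85 to 35.0 and 46.5. The baseline and 24 h pairs did not overlap in any of these 8 regions, which were named for the largest called changes, so this is partly a result of that choice. The count in BT474 was 3 to 16 without any one of its 4 libraries. The count in BT474R was 1831 without baseline replicate 1, 58 without baseline replicate 2, 43 without control replicate 1 and 70 without control replicate 2.

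Members were last read by the nearest protein-coding gene, with 9 gene lists, a gene being taken where its start lay within 100 kb. The 16 members near genes of MAP kinase feedback (8 genes such as SPRY4, SPRED2 and ERRFI1) had 6 raised and 0 lowered in EGF-BT474, 5 and 2 in HRG-BT474, 6 and 1 in EGF-BT474R, and 2 and 0 in HRG-BT474R. The 11 near immediate early and AP-1 genes had 4 raised and 2 lowered, 4 and 1, 5 and 1, and 1 and 0 in the same order. The 30 near luminal and epithelial genes had 4 and 5, 5 and 5, 5 and 5, and 1 and 0. The 7 near HER receptor, ligand and adaptor genes had none raised, with 0, 1, 3 and 0 lowered. For glycolysis and hypoxia genes (9 members) the counts were 1 and 1 in each of the first 3 comparisons and 1 and 0 in HRG-BT474R. Lipid synthesis genes (3 members) and basal and mesenchymal markers (2) had no ligand call, interferon response genes (2) had 1 raised in EGF-BT474R, and blood and endothelial markers (4) had 1 lowered in HRG-BT474. The counts are small, and the share of all shared regions raised in these comparisons is 11.3%, 11.7%, 9.69% and 2.26%. The share lowered is 5.73%, 8.32%, 6.89% and 0.56%.

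Within these lists, a member 34.5 kb from EGLN3 (chr14:34496711-34497919), a prolyl hydroxylase that marks hypoxia-inducible factors for breakdown, held AP-1 letters and was raised in all 4 comparisons, by 15.2 ± 1.82 (SE) points in EGF-BT474 (adjusted p = 0.000141), 12.89 ± 1.82 in HRG-BT474, 16.8 ± 3.18 in EGF-BT474R and 15.5 ± 3.18 in HRG-BT474R (adjusted p = 0.0204). The one 67.2 kb from KLF6 (chr10:3852168-3852838), an immediate early zinc finger gene, also held AP-1 letters and was raised by 10.2, 11.4 and 10.6 points in the first 3, and the one 46.1 kb from SPRY4 (chr5:142279922-142280857), an inhibitor of receptor tyrosine kinase signalling, by 7.44 and 8.95 in BT474. In contrast, the member 26.5 kb from EGR1 (chr5:138491473-138492522), a classical immediate early gene, held no AP-1 letters and was lowered by EGF in both lines (-11.4 ± 2.34 (SE), adjusted p = 0.00516 in BT474 and -9.92 ± 2.24, adjusted p = 0.00819 in BT474R). The member in an intron of IKZF3, 63.0 kb from GRB7 (chr17:39800449-39801338), an adaptor of HER2 that lies beside ERBB2, was lowered by HRG in BT474 (-9.52 ± 2.04) and by EGF in BT474R (-13.0 ± 2.60). Between the lines, 9 of the 30 members near luminal and epithelial genes were higher in BT474R and 15 lower, with a median difference of -1.45 points. The counts were 9 higher and 4 lower near MAP kinase feedback genes, 7 and 3 near immediate early and AP-1 genes, 2 and 4 near HER receptor, ligand and adaptor genes, 6 and 1 near glycolysis and hypoxia genes, 1 and 1 near lipid synthesis genes, 1 and 0 near interferon response genes, 1 and 1 near basal and mesenchymal markers and 3 and 0 near blood and endothelial markers, where 41.5% of all shared regions were higher and 42.5% lower. Of the members named by the rule of smallest adjusted p, those near EPCAM (43.4 points higher in BT474R, chr2:47265075-47266484), SPRED2 (41.7, chr2:65486346-65486926), EGLN3 (44.5), ESR1 (34.2, an intronic region, chr6:151702982-151703772) and SPRY4 (26.4) ranked higher in BT474R. Those in an intron of TRPS1 on chromosome 8 (-28.7), near EGR1 (-21.6) and in an intron of NRG2 (-20.1, chr5:139968633-139969130, with 2 CTCF matches) ranked lower. The EGR1 and NRG2 regions lie in the lowest 5 Mb window, chromosome 5 from 135000001 to 140000000. The median difference there was -20.1 in the 13 members and -16.6 in the 37 other shared regions, so these 2 values are near that of their stretch.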

How the data were processed

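ATAC-seq peak lists of 40 libraries (20 groups of 2) were used. The authors trimmed reads with Trim Galore 0.6.6, aligned them with BBMap to GRCh38.p13, removed mitochondrial and blacklisted reads and called peaks with Genrich in each library, without pooling replicates. The Genrich options used are not stated in these sources. The deposited score of a peak is its area under the significance curve (at least 200), made by the authors' peak caller, which grows with depth and width. The deposited −log10 p and −log10 q values were not used for any result. Read counts were not analysed here, so depth and its counting error are unknown and no interval from counts is given.

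Peaks were merged (1 bp overlap), annotated with GENCODE release 44 and ranked (list and shared-region percentiles). Python 3.11.15, pandas 2.3.3, numpy 2.4.6, pysam 0.24.0 and matplotlib 3.10.9 were used. Shared-region percentiles of all 25166 shared regions were fitted with limma 3.58.1 (R 4.3.3; lmFit, contrasts.fit, eBayes with trend), with Benjamini-Hochberg adjustment over all of them and 0.05 as threshold; the code was tested on simulated data. Every adjusted p is from this fit, and SE is its standard error. Ligands were compared with time-matched controls, 6 libraries against 6, and the lines with 20 against 20. Treatments were performed in duplicate per the study's methods, which do not state whether duplicates were wells of 1 plating or separate passages, so p-values measure the spread between these libraries only. BT474R is 1 clone, so clone and resistance cannot be told apart. Regions named are the 2 with the largest called change per direction in each comparison (4 per direction between lines), the 5 highest and 3 lowest by level, and up to 4 called members per gene list by smallest adjusted p. A region that this rule also names is not reported here. The members and lists were chosen with earlier results of these data known. The study's own differential analysis on reads was not repeated.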

Additional observations from a re-analysis of the deposited data

Results flagged for a closer look

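The ligand by line test singled out members whose EGF or HRG difference itself differed between BT474R and BT474 (limma, adjusted p under 0.05). With EGF, 120 members had a more positive difference in BT474R and 226 a more negative one. With HRG, 21 were more positive and 131 more negative in BT474R. Of the 226, 98 differed upward in BT474 and downward in BT474R by the sign of the estimates. A more negative difference in BT474R selected the 226, so that choice favours this pattern and the reverse pattern cannot occur among them. Of all members, 5 were called raised by EGF in BT474 and lowered by it in BT474R. The signs were not counted over all shared regions.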

How the results depend on the processing

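Values here are percents of the members called, unless said otherwise. Of 370 alternatives, 254 stayed within 1.5 times the reported value (AP-1 shares within their interval) with their direction kept, 105 moved further and 11 turned the balance of direction. The line difference (85.11) kept its count and direction throughout, between 81.9 and 86.04. The cause of the changes below was not tested. The fits without the 12 h groups, and for AP-1 the wider motif window, the list percentile and regions with a single peak in every list, were chosen after seeing the data.

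Without the 12 h groups the values were 14.27 for EGF-BT474R, 0.03331 for HRG-BT474R, 1.182 for EGF against HRG in BT474R, 1.149 for the EGF and 1.515 for the HRG difference between lines. With the list percentile they were 12.69 for HRG-BT474R, 14.14 for EGF-BT474 at 12 h, 0.1332 for EGF-BT474R at 1 h (direction turned), 20.77 and 0.1998 for HRG-BT474R at 12 and 24 h, 0.09992 and 4.996 (direction turned) for EGF against HRG in BT474 and BT474R, and 5.945 for control 24 h against baseline in BT474R. Over all consensus regions they were 10.51 for HRG-BT474R, 0.4996 and 6.844 (direction turned) for EGF against HRG, 5.179 for the HRG difference between lines (turned) and 0.383 for the baseline comparison in BT474 (turned). Quantile-normalised log2 scores gave 0 and 3.447 (turned) for EGF against HRG. A score of at least 400 gave 2.979 for HRG-BT474R and 0.1339 for EGF against HRG in BT474, peaks trimmed to 400 bp gave 0.03428 for the latter, and members more than 50 kb from starts gave 0 for it and 0.2088 for the baseline comparison in BT474. Array weights gave 8.41 for EGF against HRG in BT474R, 9.292 for the EGF difference between lines, and 4.097 and 0.06661 for the baseline comparisons in BT474 and BT474R, and summed peak scores gave 1.332 and 6.128 for these.

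The AP-1 share of raised members was 43.9% in EGF-BT474 and 54.1% in HRG-BT474R with the list percentile, where it was 0 of lowered members in HRG-BT474R. In the wider motif window it was 57.1%, 58.2%, 64.4% and 70.7% of raised members in EGF-BT474, HRG-BT474, EGF-BT474R and HRG-BT474R, and 5.21% and 9.37% of lowered members in HRG-BT474 and EGF-BT474R.

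Leaving out 1 library at a time gave 2.381 to 5.828 for HRG-BT474R. At 1, 12 and 24 h it gave 0.8993 to 1.715, 1.282 to 19.95 and 9.059 to 13.67 for EGF-BT474, 6.295 to 7.427, 4.28 to 5.562 and 10.24 to 27.04 for HRG-BT474, 0.06661 to 0.4996 (direction turned), 5.062 to 8.326 and 5.396 to 9.092 for EGF-BT474R, and 0 to 0.01665, 0.6828 to 3.197 and 0.04996 to 0.2998 for HRG-BT474R. It gave 0.01665 to 0.2664 for EGF against HRG in BT474 (turned at 0.04996), 1.732 to 5.795 in BT474R, 3.664 to 7.644 for the EGF difference between lines, and 0.04996 to 0.2664 and 0.7161 to 30.49 for the baseline comparisons in BT474 and BT474R. Where this left a group with 1 library, limma pooled the spread, so that library is assumed to vary like the other groups.

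Same-numbered libraries showed no common deviation in median over the 45 pairs of groups in each line. The median r was 0.0119 in BT474 (lowest -0.237, highest 0.617) and -0.0021 in BT474R (lowest -0.415, highest 0.483). Some pairs of groups did deviate together, with 5 and 11 pairs over 0.1. The numbers were not taken to pair samples. A replicate block moved no count by over 1.5 times, for example to 5.262 from 4.713 for HRG-BT474R.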
